A study of Homo sapiens with 18 samples.

Results

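The 6 genes described here, CCN1, CCN2, THBS1, NT5E, CRIM1 and TPM1, are known targets of the transcriptional coactivator YAP and its DNA-binding partners of the TEAD family. They were taken by name, with every probe set annotated to them: 17 of the 20264 probe sets that name a single gene, and 6 of the 10918 genes tested. All 17 probe sets reached log2 4 on at least 3 arrays, and 0 probe sets of several genes named any of the 6. The genes were chosen by name with their log2 differences between these groups already in view, so their levels and differences are given as a description, with no p-value of their own.

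Total RNA of 2 human melanoma cell lines, A375M2 (entered as A375 under cell line) and C32, was hybridised to 18 Affymetrix 3′ arrays, 3 in each of 6 groups. All cells carried lentiviral vectors. A375M2 PMEL cells expressed the full-length human PMEL gene, A375M2 shFHL2 cells short hairpin RNAs (shRNAs) against FHL2, and A375M2 shNFYA cells shRNAs against NFYA; A375M2 GFP cells, with a GFP vector, were their control. C32 shFHL2 cells were set against C32 GFP cells in the same way. PMEL, the structural protein of melanosome fibrils, was driven by a CMV promoter with a His tag and followed by an eGFP cassette. The FHL2 knockdown used a pool of 3 hairpin constructs. Cells were kept under antibiotic selection, and those with the highest GFP were sorted, so each group is a selected pool and not a clone. The series describes an empty eGFP vector and a CopGFP control virus, the labels do not say which of them the GFP arrays hold, and a non-targeting shRNA is not among the labelled groups. The A375M2 samples came from 3 separate experiments; the labels give no such details for C32 or for the NFYA shRNAs.

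YAP and its paralog TAZ (gene WWTR1) do not bind DNA themselves; they enter the nucleus and act through TEAD1 to TEAD4 at promoters and enhancers. The Hippo kinases STK3 and STK4, with LATS1 and LATS2, phosphorylate YAP and TAZ and hold them in the cytoplasm. Cell spreading, stiff matrix and actin tension favour their nuclear form, and in melanoma YAP and TEAD activity has been tied to invasive, poorly differentiated states. CCN2 and CCN1 are secreted matricellular proteins and are the most widely used readouts of YAP and TEAD. THBS1 encodes thrombospondin-1, a secreted matricellular protein that restrains vessel growth and activates latent TGF-beta. NT5E encodes CD73, a cell-surface enzyme that makes adenosine from AMP. CRIM1 is a membrane protein that binds bone morphogenetic proteins, and TPM1 is a tropomyosin that lines actin filaments.

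Promoters are shown because the groups perturb FHL2, a LIM-domain scaffold protein that binds transcriptional regulators, and NFYA, the subunit of NF-Y that recognises the CCAAT box. RefSeq sequence of the 250 bases before the transcript start (GRCh38.p14) was held for 4 of the 6 genes and not for CCN1 and CRIM1. It was searched on both strands for the TEAD core GGAATG, the CCAAT box CCAAT and the CArG box of serum response factor, which do not overlap here. The CCN2 stretch lies on the minus strand at chr6:131951373-131951622 and the THBS1 stretch on the plus strand at chr15:39580829-39581078. Capitals mark GGAATG and ATTGG, the CCAAT box read on the other strand.

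CCN2: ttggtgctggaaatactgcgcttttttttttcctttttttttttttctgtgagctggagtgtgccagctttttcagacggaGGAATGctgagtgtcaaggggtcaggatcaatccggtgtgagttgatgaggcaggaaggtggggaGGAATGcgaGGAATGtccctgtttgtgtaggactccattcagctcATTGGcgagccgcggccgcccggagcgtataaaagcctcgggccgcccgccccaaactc

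THBS1: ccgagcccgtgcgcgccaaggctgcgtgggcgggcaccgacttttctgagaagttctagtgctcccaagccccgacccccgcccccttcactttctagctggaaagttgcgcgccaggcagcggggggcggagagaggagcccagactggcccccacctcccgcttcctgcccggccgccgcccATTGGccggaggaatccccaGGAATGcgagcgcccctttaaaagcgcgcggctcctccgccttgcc

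The CCN2 stretch held 3 TEAD cores, at bases 169 to 164, 104 to 99 and 95 to 90 before the start, and 1 CCAAT box at bases 59 to 55. The THBS1 stretch held 1 TEAD core at bases 46 to 41 and 1 CCAAT box at bases 66 to 62. Neither motif was found in the same window of NT5E (chr6:85449833-85450082, plus strand) or TPM1 (chr15:63048239-63048488, plus strand), and a CArG box was found in 0 of the 4. Of 35116 RefSeq promoters of this length, 11.9% held a TEAD core on either strand, 32% a CCAAT box and 3.98% both; 0.0826% held 3 or more TEAD cores and 1.16% a CArG box. A match describes the letters in this window only.

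Some arrays stood apart. The third C32 GFP array was almost exactly the average of the other two (SD 0.0079 log2 over 19506 probe sets, against 0.134 to 0.206 for the other arrays and their groups) and was left out, so C32 GFP values are from 2 arrays. Replicate 3 of A375M2 PMEL and replicate 3 of A375M2 GFP were not independent of each other: their deviations from replicates 1 and 2 mirrored each other (r = -0.9987 over 19431 probe sets, against -0.0056 to -0.0506 for 3 other pairs of groups) and each shared 0 exactly equal values with replicates 1 and 2 of its own group, which shared 1190 (PMEL) and 1220 (GFP) with each other. Differences of the 6 genes from the A375M2 GFP arrays are therefore also given without both. The A375M2 shRNA arrays shared 0 exactly equal values with the A375M2 GFP arrays, so those comparisons cross 2 sets of arrays; PMEL against GFP, shFHL2 against shNFYA and the C32 comparison do not. The 2 C32 GFP arrays used also shared 0 with the A375M2 GFP arrays, so the comparison of the lines crosses sets too. Within A375M2 the 18S control averaged 11.08 ± 0.02 with PMEL, 14.18 ± 0.07 with shFHL2, 14.19 ± 0.11 with shNFYA and 12.52 ± 0.03 with GFP (SD, n = 3 each). The 3′ minus 5′ log2 signal of the actin control, a sign of RNA integrity, averaged 0.74 ± 0.08 with PMEL, 1.07 ± 0.08 with shFHL2, 1.19 ± 0.08 with shNFYA and 0.61 ± 0.13 with GFP in A375M2 (SD, n = 3 each), and 0.87 with shFHL2 and 1.08 with GFP in C32. The part of either control in the results was not tested.

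The targeted genes followed their labels. FHL2 averaged 7.17 ± 0.14 in A375M2 shFHL2 cells and 11.21 ± 0.05 in A375M2 GFP cells (SD, n = 3 each), and 5.83 ± 0.46 in C32 shFHL2 cells (n = 3) against 11.08 ± 0.06 in C32 GFP cells (n = 2). PMEL averaged 8.95 ± 0.06 in PMEL cells and 5.57 ± 0.20 in GFP cells, and NFYA 7.52 ± 0.18 in shNFYA cells and 9.59 ± 0.17 in GFP cells (SD, n = 3 each). NFYA was also lower in A375M2 shFHL2 cells, at 8.86 ± 0.09, a fall of 0.73 against GFP (SE 0.0941, limma adjusted p = 1.04e-06) on all 4 of its probe sets. Of 8 measured melanocyte markers, 7 were called higher in C32 GFP than in A375M2 GFP (limma adjusted p under 0.05) and 1, S100A1, lower. In that comparison 38.5% of all genes tested were called higher and 47.4% lower. MLANA averaged 14.00 in C32 GFP and 2.38, under log2 4, in A375M2 GFP, and TYR 13.48 and 4.44. In the same groups MITF averaged 14.96 and 14.24, SOX10 12.88 and 12.76, and S100A1 8.83 and 10.03. In bulk RNA, fewer cells of a type and less RNA per cell cannot be told apart.

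CCN2 was lower in all 3 perturbed A375M2 groups. Its probe set read 9.86, 9.73 and 9.89 on the PMEL arrays, 9.77, 9.66 and 9.67 on the shFHL2 arrays, 8.58, 8.33 and 8.52 on the shNFYA arrays, and 11.74, 11.78 and 11.67 on the A375M2 GFP arrays, all as log2 signal. Every array of the 3 perturbed groups lay below every GFP array, and the shNFYA arrays lay lowest. Relative to GFP, CCN2 was 3.73-fold lower with PMEL (log2 difference -1.90, SE 0.0616), 4.07-fold lower with shFHL2 (-2.03) and 9.54-fold lower with shNFYA (-3.25). Without both replicates 3 these differences were -1.96, -2.06 and -3.29. In C32 the gene read 9.44, 9.44 and 9.39 on the shFHL2 arrays and 9.33 and 9.24 on the GFP arrays, a difference of 0.14 (SE 0.0689) in the other direction. The C32 levels lay between those of A375M2 shFHL2 and A375M2 shNFYA cells.

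CCN1 was lower in every perturbed group of both lines. Its brighter probe set read 10.39, 10.42 and 10.39 on the PMEL arrays, 10.53, 10.42 and 10.47 on the shFHL2 arrays, 9.12, 9.07 and 9.13 on the shNFYA arrays, and 11.38, 11.41 and 11.40 on the A375M2 GFP arrays. The highest PMEL array and the lowest shFHL2 array both rounded to 10.42, and shNFYA cells lay below both groups. The gene was 2.0-fold lower with PMEL (-1.0, SE 0.0397), 1.90-fold lower with shFHL2 (-0.93) and 4.90-fold lower with shNFYA (-2.29); these were -0.99, -0.92 and -2.29 without both replicates 3. C32 arrays read 8.33, 8.31 and 8.39 with shFHL2 and 10.04 and 10.10 with GFP, a 3.31-fold lower level (-1.73, SE 0.0444). The other probe set, 210764_s_at, ran the same way in each of these comparisons, with differences of -1.05, -1.45, -2.69 and -1.62.

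THBS1 did not follow the CCN genes with PMEL. Its brightest probe set, 201110_s_at, read 13.59, 13.58 and 13.47 on the PMEL arrays, 12.45, 12.49 and 12.48 on the shFHL2 arrays, 10.86, 10.86 and 10.83 on the shNFYA arrays, and 13.05, 13.50 and 13.39 on the A375M2 GFP arrays. PMEL and GFP arrays overlapped, and shFHL2 and then shNFYA arrays lay below them. The difference with PMEL was 0.23 (SE 0.165), and 0.31 without both replicates 3; without A375M2 GFP replicate 1, the lowest GFP array, it was 0.10. With shFHL2 the gene was 1.79-fold lower (-0.84; -0.80 without both replicates 3), and with shNFYA 5.51-fold lower (-2.46; -2.43 without both). The other probe sets ran the same way: 201108_s_at differed by 0.13 with PMEL, -1.24 with shFHL2 and -3.47 with shNFYA, and 201109_s_at by 0.36, -0.35 and -2.17.

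In C32, THBS1 was near the bottom of the scale. 201110_s_at read 3.68, 4.43 and 3.42 on the C32 shFHL2 arrays against 6.55 and 6.61 on the C32 GFP arrays, and the other probe sets lay under log2 3 on all arrays of both groups. The measured difference of -2.74 (SE 0.184) ends at or near the background; with values under log2 4 set to 4 it was -2.44, and as a mean over the probe sets -0.93. Between the control cells of the lines, THBS1 averaged 6.58 ± 0.04 in C32 GFP (n = 2) and 13.31 ± 0.23 in A375M2 GFP (n = 3, SD).

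**Figure D1:**
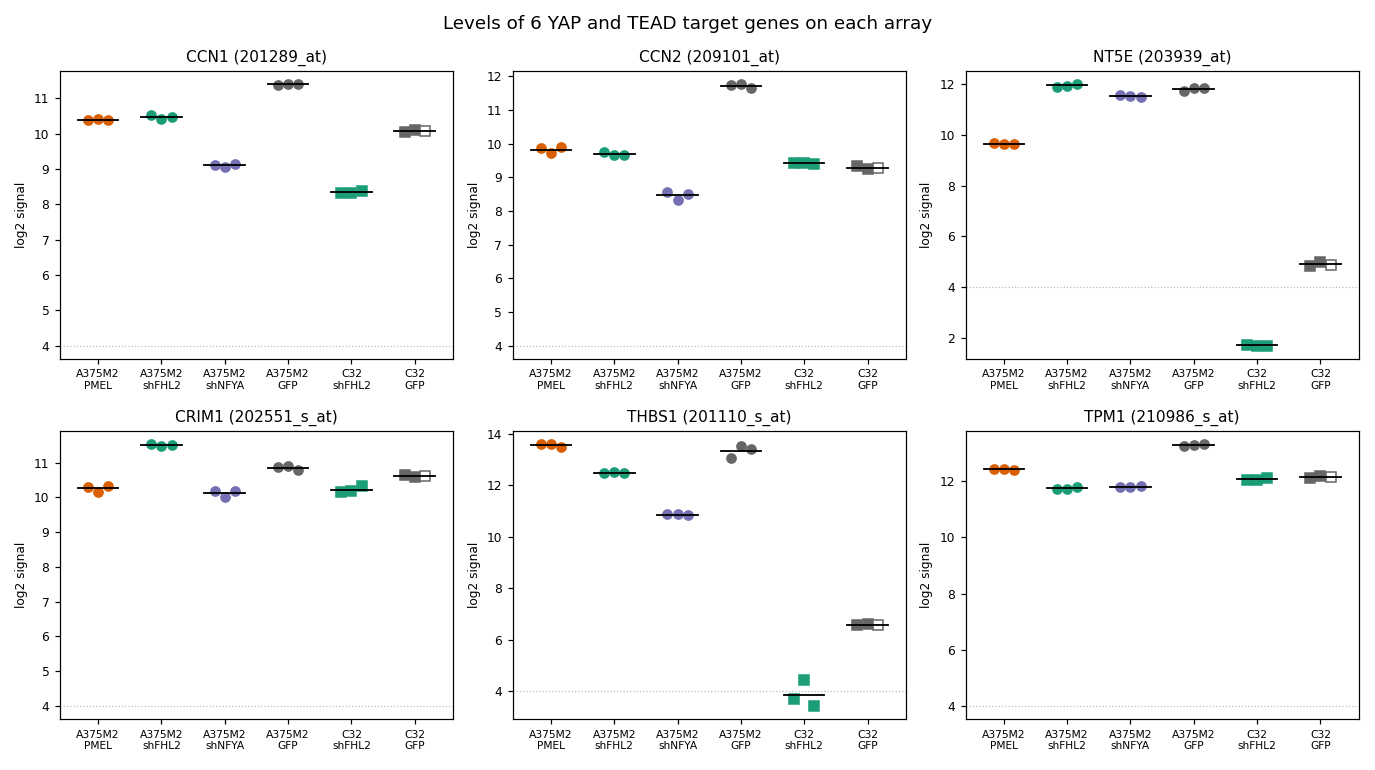
Log2 signal (y axis) of the representative probe set of each of the 6 genes in the 6 groups (x axis): points are arrays, bars are group means, the dotted line marks log2 4, and the open square is C32 GFP replicate 3, which is not in the mean. CCN2 lies between 11.67 and 11.78 on the A375M2 GFP arrays, above every other group, and NT5E and THBS1 lie far lower in C32 than in A375M2.

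NT5E separated PMEL from the shRNA groups. Its brightest probe set, 203939_at, read 9.68, 9.64 and 9.62 on the PMEL arrays, 11.89, 11.93 and 12 on the shFHL2 arrays, 11.58, 11.54 and 11.50 on the shNFYA arrays, and 11.70, 11.85 and 11.82 on the A375M2 GFP arrays. The other 3 groups lay close together, without overlap, and the PMEL arrays lay 4.41-fold below GFP (-2.14, SE 0.0575; -2.11 without both replicates 3). All 4 probe sets were lower with PMEL, by 0.74 to 2.14 on the log2 scale.

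The shRNA groups depended on the probe set. 203939_at differed from GFP by 0.15 with shFHL2 and -0.25 with shNFYA (0.17 and -0.23 without both replicates 3). 1553994_at read 10.68, 10.62 and 10.63 with shFHL2 and 11.60, 11.39 and 11.32 with shNFYA, against 8.55, 8.89 and 8.72 with GFP, differences of 1.92 and 2.72. 1553995_a_at gave 1.96 and 2.72, and 227486_at 1.03 and 0.97. With shNFYA, 1 probe set of NT5E was therefore lower and the other 3 were higher, and the mean over the probe sets was 1.54; with shFHL2 all 4 were higher and their mean was 1.26. Which transcripts each probe set reads was not analysed here.

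In C32, NT5E was low in both groups. 203939_at read 1.73, 1.70 and 1.70 on the C32 shFHL2 arrays and 4.83 and 5.00 on the C32 GFP arrays, a measured difference of -3.21 (SE 0.0643) that was -0.92 with values under log2 4 set to 4. 227486_at lay at 2.62 on all 3 shFHL2 arrays and at 2.62 and 2.64 on the GFP arrays, under log2 4 in both groups. Against A375M2 GFP, the C32 GFP arrays were lower on all 4 probe sets, with log2 differences of -6.87 to -4.10.

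**Figure D2:**
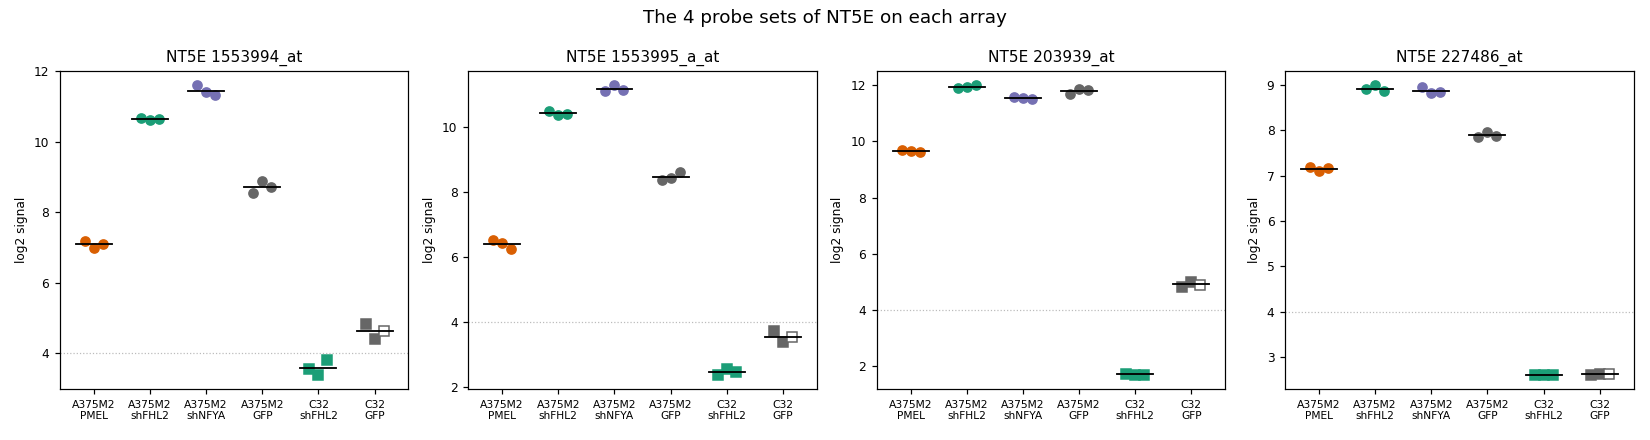
Log2 signal (y axis) of each of the 4 NT5E probe sets on each array, by group (x axis), with bars for means, the dotted line at log2 4 and an open square for C32 GFP replicate 3. PMEL arrays lie below A375M2 GFP arrays in every panel, whereas shNFYA arrays lie above them in 3 panels and below them for 203939_at.

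CRIM1 had opposite signs in the 2 A375M2 knockdowns. Its brightest probe set, 202551_s_at, read 10.31, 10.15 and 10.33 on the PMEL arrays, 11.53, 11.48 and 11.50 on the shFHL2 arrays, 10.18, 10.00 and 10.17 on the shNFYA arrays, and 10.88, 10.90 and 10.79 on the A375M2 GFP arrays. The shFHL2 arrays lay above GFP, and the PMEL and shNFYA arrays below. The log2 differences from GFP were -0.59 with PMEL, 0.65 with shFHL2 and -0.74 with shNFYA (SE 0.0581 each), or 1.51-fold lower, 1.57-fold higher and 1.67-fold lower. Without both replicates 3 they were -0.65, 0.62 and -0.77. The 3 probe sets shared these signs, with ranges of -1.21 to -0.59, 0.65 to 1.07 and -0.74 to -0.19. In C32 the gene read 10.15, 10.17 and 10.32 with shFHL2 and 10.63 and 10.59 with GFP, 1.31-fold lower (-0.39, SE 0.0649).

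TPM1 was lower in all 3 perturbed A375M2 groups. Its brightest probe set, 210986_s_at, read 12.43, 12.45 and 12.39 on the PMEL arrays, 11.72, 11.73 and 11.78 on the shFHL2 arrays, 11.80, 11.78 and 11.82 on the shNFYA arrays, and 13.26, 13.30 and 13.32 on the A375M2 GFP arrays. The shFHL2 arrays lay just below the shNFYA arrays without overlap, although the nearest of each rounded to 11.78. PMEL lay between the knockdowns and GFP. The gene was 1.83-fold lower with PMEL (-0.87, SE 0.0295), 2.93-fold lower with shFHL2 (-1.55) and 2.81-fold lower with shNFYA (-1.49), or -0.84, -1.54 and -1.48 without both replicates 3. All 4 probe sets agreed in sign in these comparisons. In C32 the arrays read 12.04, 12.06 and 12.10 with shFHL2 and 12.13 and 12.17 with GFP, a difference of -0.09 (SE 0.033), and 2 of the 4 probe sets were lower and the other 2 higher. 1 TPM1 probe set, 210987_x_at, is of a type that can cross-hybridise with related sequences.

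The probe sets were also counted by direction. With PMEL, 14 of the 17 probe sets were lower than GFP on every array and the 3 of THBS1 were higher, 2 of them on every array. Over all genes tested, the PMEL and GFP arrays did not overlap for 49.9%, with 22.1% lower and 27.8% higher. Here and below, such shares read each gene on its brightest probe set only, and a share over all probe sets was not computed. With shFHL2, 10 probe sets were lower and 7 higher than GFP, all without overlap, where 86.9% of all genes did not overlap, 45.2% being lower and 41.7% higher. With shNFYA, 14 were lower and 3 higher, all without overlap, where 87.1% of all genes did not overlap, 43.4% being lower and 43.7% higher. In C32, 13 were lower with shFHL2 and 3 higher without overlap, 4 of the 17 lay under log2 4 in both groups, and 74.5% of all genes did not overlap, 36.4% being lower and 38.1% higher.

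A gene was called at a limma adjusted p under 0.05. With PMEL, 5 of the 6 genes were called lower and 0 higher, THBS1 being the exception, and their median was -0.94; of all genes tested 40% were called, 17.8% lower and 22.1% higher, with a median of 0.0156. With shFHL2, 4 were called lower and 2 higher (median -0.88), where 85.4% of all genes were called, 44.2% lower and 41.2% higher, with a median of -0.0336. With shNFYA, 6 were called lower (median -1.89), where 86.9% were called, 43.2% lower and 43.6% higher, with a median of 0.0030. In C32, 5 were called lower with shFHL2 (median -1.06), where 62.5% were called, 30.2% lower and 32.3% higher, with a median of 0.0015; CCN2 was not called. The 3 A375M2 comparisons share their GFP arrays, and since the genes were chosen with these values known, nothing is read from the counts.

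**Figure D3:**
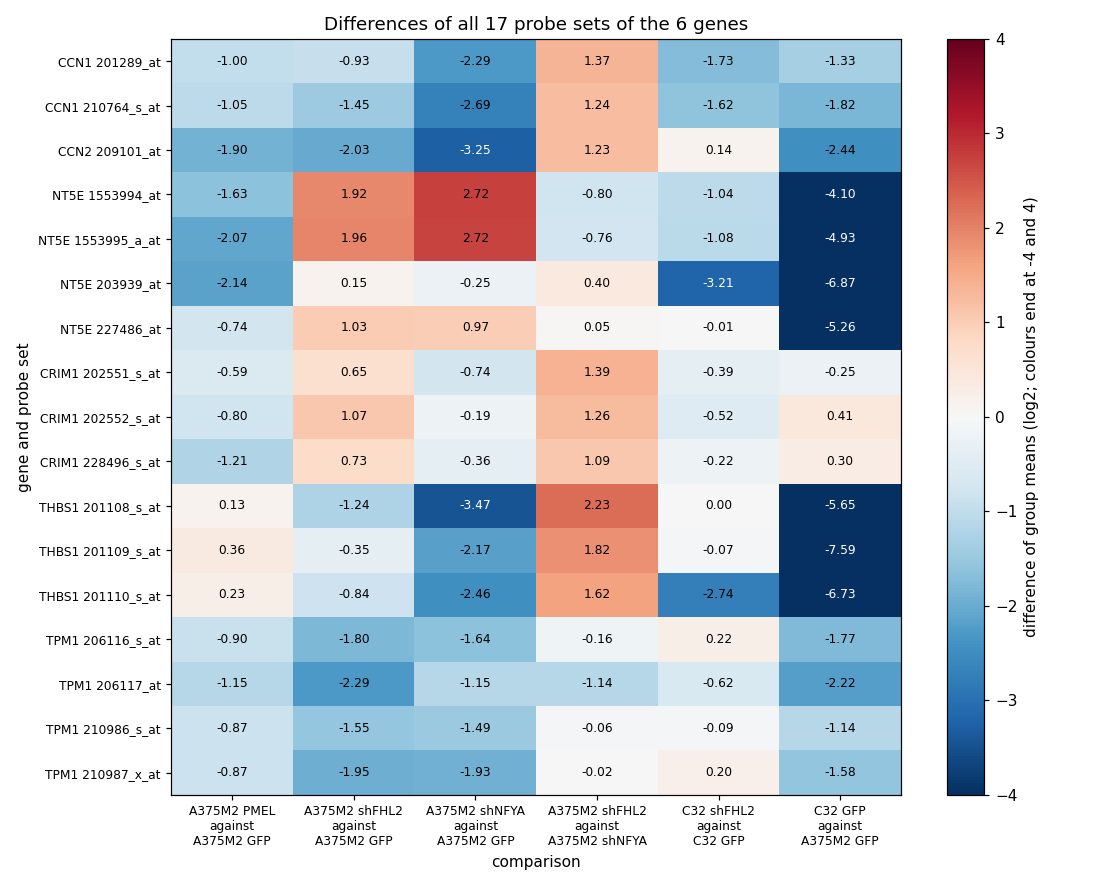
Difference of group means (log2, colour and number; colours end at -4 and 4) for each of the 17 probe sets (rows) in 6 comparisons (columns), each named with the group set against its control or other group. The CCN1, CCN2 and TPM1 rows are negative in the 3 columns against A375M2 GFP, the THBS1 rows lie between 0.13 and 0.36 with PMEL and between -3.47 and -2.17 with shNFYA, and the NT5E rows differ in sign among themselves with shNFYA.

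The 2 A375M2 knockdowns could be set against each other without the GFP arrays and within 1 set of arrays. Of the 6 genes, 5 were called higher in shFHL2 than in shNFYA cells and 0 lower (median 1.30), where 70.3% of all genes were called, 31.8% higher and 38.4% lower, with a median of -0.0342. THBS1 was 3.07-fold higher in shFHL2 than in shNFYA cells (1.62, SE 0.165), CRIM1 2.62-fold higher (1.39), CCN1 2.58-fold higher (1.37) and CCN2 2.34-fold higher (1.23). All 9 probe sets of these 4 genes ran this way without overlap, where 74.1% of all genes did not overlap, 33.6% higher and 40.5% lower. NT5E differed by 0.40 on 203939_at, but by -0.28 as a mean over its probe sets, 2 of which were higher and the other 2 lower. TPM1 differed by -0.06 (SE 0.0295) and was not called; its dimmest probe set, 206117_at, differed by -1.14.

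Between the lines, C32 GFP cells were lower than A375M2 GFP cells for every gene on its brightest probe set. All 6 were called lower (median -1.89), where 85.9% of all genes were called, 47.4% lower and 38.5% higher, with a median of -0.107. The groups did not overlap for 89.9% of all genes, 50.4% being lower and 39.5% higher. NT5E was 117-fold lower in C32 GFP (-6.87, SE 0.0643) and THBS1 106-fold lower (-6.73, SE 0.184), CCN2 5.44-fold (-2.44), CCN1 2.51-fold (-1.33) and TPM1 2.20-fold (-1.14). CRIM1 differed by -0.25 on its brightest probe set and by 0.41 and 0.30 on the others. Without both replicates 3 the differences were -6.86 for NT5E, -6.69 for THBS1, -2.47 for CCN2, -1.32 for CCN1, -1.13 for TPM1 and -0.28 for CRIM1. Cell line, culture and array set cannot be told apart here.

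The order of the groups was not the same for all genes. A375M2 GFP stood highest for CCN1, CCN2 and TPM1, A375M2 shFHL2 for NT5E and CRIM1, and A375M2 PMEL for THBS1, where it overlapped GFP. C32 shFHL2 stood lowest for CCN1, NT5E and THBS1, A375M2 shNFYA for CCN2 and CRIM1, and A375M2 shFHL2 for TPM1. There it lay just below shNFYA without overlap. Neighbouring groups also overlapped for CCN2 (PMEL and shFHL2 cells) and CRIM1 (PMEL, C32 shFHL2 and A375M2 shNFYA cells). For CCN1, the nearest shFHL2 and PMEL arrays of A375M2 both rounded to 10.42.

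The FHL2 shRNAs had unlike effects in the 2 lines for several of the genes. The shFHL2 difference in C32 minus that in A375M2 was 2.16 (SE 0.0925) for CCN2, with effects of 0.14 in C32 and -2.03 in A375M2, and 1.46 (SE 0.0442) for TPM1, with effects of -0.09 and -1.55. For CCN1 it was -0.80 (SE 0.0596), with effects of -1.73 in C32 and -0.93 in A375M2, but -0.17 on the other probe set. For CRIM1 it was -1.04 (SE 0.0871), with effects of -0.39 and 0.65. For NT5E it was -3.36, or -1.07 with values under log2 4 set to 4, and for THBS1 it was -1.90, or -0.12 as a mean over the probe sets. Of the 6 genes, 2 had a positive and 4 a negative called difference, where 80.2% of all genes were called, 42.1% positive and 38.1% negative. Without both replicates 3 the differences were 2.19 for CCN2, 1.45 for TPM1, -0.80 for CCN1, -1.01 for CRIM1, -3.37 for NT5E and -1.93 for THBS1. The poly-A controls averaged 5.96 in C32 shFHL2 and 9.37 in C32 GFP; their part in these differences was not tested.

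The components of the pathway were measured on the same arrays. Of 26 genes listed as Hippo components or TEAD factors, 21 were measured. With PMEL, 5 were called higher and 3 lower (median 0.03), and with shFHL2, 8 higher and 12 lower (-0.33). With shNFYA, 6 were called higher and 11 lower (-0.31), and in C32 with shFHL2, 6 higher and 4 lower (0.07). Of all genes tested, 22.1% were called higher and 17.8% lower with PMEL, and 41.2% and 44.2% with shFHL2. These shares were 43.6% and 43.2% with shNFYA, and 32.3% and 30.2% in C32 with shFHL2. YAP1, which encodes YAP, averaged 12.52 with PMEL, 12.82 with shFHL2, 11.86 with shNFYA and 12.64 with GFP in A375M2, and 13.13 with shFHL2 and 12.88 with GFP in C32. Its difference with PMEL was -0.13 (limma adjusted p = 0.0511), and it rose by 0.17 with shFHL2 (adjusted p = 0.00408) and fell by 0.79 with shNFYA (adjusted p = 6.3e-11), and was 0.96 higher in shFHL2 than in shNFYA cells (adjusted p = 1.71e-11). In each knockdown against A375M2 GFP, 1 of the 3 YAP1 and 1 of the 3 WWTR1 probe sets ran the other way.

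WWTR1, which encodes TAZ, differed by -0.03 with PMEL (limma adjusted p = 0.672), and fell by 0.41 with shFHL2 (adjusted p = 1.34e-07), by 0.72 with shNFYA (adjusted p = 4.42e-11) and by 0.33 in C32 with shFHL2 (adjusted p = 1.7e-05). TEAD1 rose by 0.19 with PMEL and by 0.44 with shFHL2, and fell by 0.42 with shNFYA and by 0.32 in C32 with shFHL2 (limma adjusted p = 0.000275, 9.92e-10, 1.69e-09 and 6.95e-07). With PMEL and with shNFYA, only 1 of the 3 TEAD1 probe sets ran this way, against all 3 with shFHL2 in either line. TEAD4 fell by 0.41 with shFHL2 and by 0.54 with shNFYA in A375M2, and rose by 0.66 in C32 with shFHL2 (limma adjusted p = 6.36e-06, 1.48e-07 and 1.48e-07). TEAD2 lay under log2 4 in every A375M2 group. YAP1, WWTR1 and the TEAD genes were chosen for their role in the pathway after their values were seen.

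Some genes upstream of YAP also differed, and they are named here mainly for the size of their differences within the list. FRMD6, a FERM-domain protein linked to Hippo signalling, averaged 11.77 with shFHL2, 10.15 with shNFYA and 13.74 with GFP, falls of 1.97 and 3.59 (limma adjusted p = 5.77e-16 and 8.8e-20), and 13.99 with PMEL, a rise of 0.25 (adjusted p = 0.00148). MOB1A, a cofactor of the LATS kinases, rose by 1.51 with shFHL2 and by 2.09 with shNFYA, and by 0.63 in C32 with shFHL2 (limma adjusted p = 2.77e-17, 1.94e-19 and 1.89e-10). In A375M2, only 3 of the 4 MOB1A probe sets rose with shFHL2 and only 2 with shNFYA. NF2, the tumour suppressor merlin that activates LATS, averaged 8.30 with shFHL2 and 9.48 with GFP in A375M2, and its effects in the 2 lines differed by 1.12 (adjusted p = 2.11e-08). AJUBA, a LIM protein that restrains LATS, was 0.89 higher in shFHL2 than in shNFYA cells (adjusted p = 3.45e-11). STK3 was 1.29 higher in shFHL2 than in shNFYA cells (adjusted p = 1.94e-12) and lower than GFP by 1.73 in shNFYA cells, where 1 of its 2 probe sets ran the other way.

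Other known YAP and TEAD targets did not share 1 direction. A published YAP and TAZ target signature holds CCN1, CCN2, CRIM1 and NT5E, but not THBS1 and TPM1. Its other 18 genes were taken as a list, of which 14 were measured. ANKRD1, CCDC80, ARHGEF17 and NUAK2 were not tested. With PMEL, 4 were called higher and 7 lower (median -0.09), with shFHL2 7 higher and 5 lower (0.17), with shNFYA 7 higher and 6 lower (0.05), and in C32 with shFHL2 6 higher and 7 lower (-0.22). Between the A375M2 knockdowns, 8 were called higher in shFHL2 than in shNFYA and 2 lower (0.43). Between the control cells 4 were called higher and 9 lower in C32 GFP (-0.22). Among all genes tested, 40% were called with PMEL, 85.4% with shFHL2, 86.9% with shNFYA and 62.5% in C32 with shFHL2. The share was 70.3% between the knockdowns and 85.9% between the control cells. The medians of the 6 genes are given above beside the all-gene medians, and no test of the difference between the lists was made.

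AXL, a receptor tyrosine kinase, averaged 3.77 ± 0.24 with PMEL, 12.27 ± 0.09 with shFHL2, 11.94 ± 0.14 with shNFYA and 4.98 ± 0.25 with GFP in A375M2 (SD, n = 3 each). It rose by 7.29 with shFHL2 and by 6.96 with shNFYA (limma adjusted p = 1.23e-16 and 1.6e-16) in cells whose CCN1 and CCN2 were lower. TGFB2, a TGF-beta ligand, averaged 7.33 with PMEL, 3.90 with shFHL2, 3.90 with shNFYA and 8.64 with GFP, so it fell in all 3, with log2 differences of -1.31, -4.74 and -4.73 (limma adjusted p = 1.25e-07, 7.96e-17 and 5.4e-17). Its level in both knockdowns lies under log2 4, where sizes cannot be read closely. MYOF, a membrane repair protein, fell by 1.03 with PMEL (adjusted p = 4.43e-12). RBMS3, an RNA-binding protein, fell by 1.82 with shFHL2 and by 4.55 with shNFYA (limma adjusted p = 1.16e-11 and 1.68e-17), and F3, tissue factor, rose by 2.81 with shFHL2 (adjusted p = 1.48e-10). ASAP1, an ARF GTPase-activating protein, fell by 2.22 with shNFYA (adjusted p = 7.68e-19), with all 5 probe sets the same way.

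In C32, IGFBP3, an IGF-binding protein, averaged 3.23 ± 0.11 with shFHL2 (n = 3) and 11.48 ± 0.05 with GFP (n = 2, SD), a fall of 8.25 that ended under log2 4 (limma adjusted p = 1.13e-23). AXL fell by 2.22 there (adjusted p = 4.07e-08), with 2.03 in shFHL2 and 4.25 in GFP cells, TGFB2 by 2.09 (adjusted p = 2.24e-10) and FOXF2 by 1.92 (adjusted p = 6.32e-12).

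**Figure D4:**
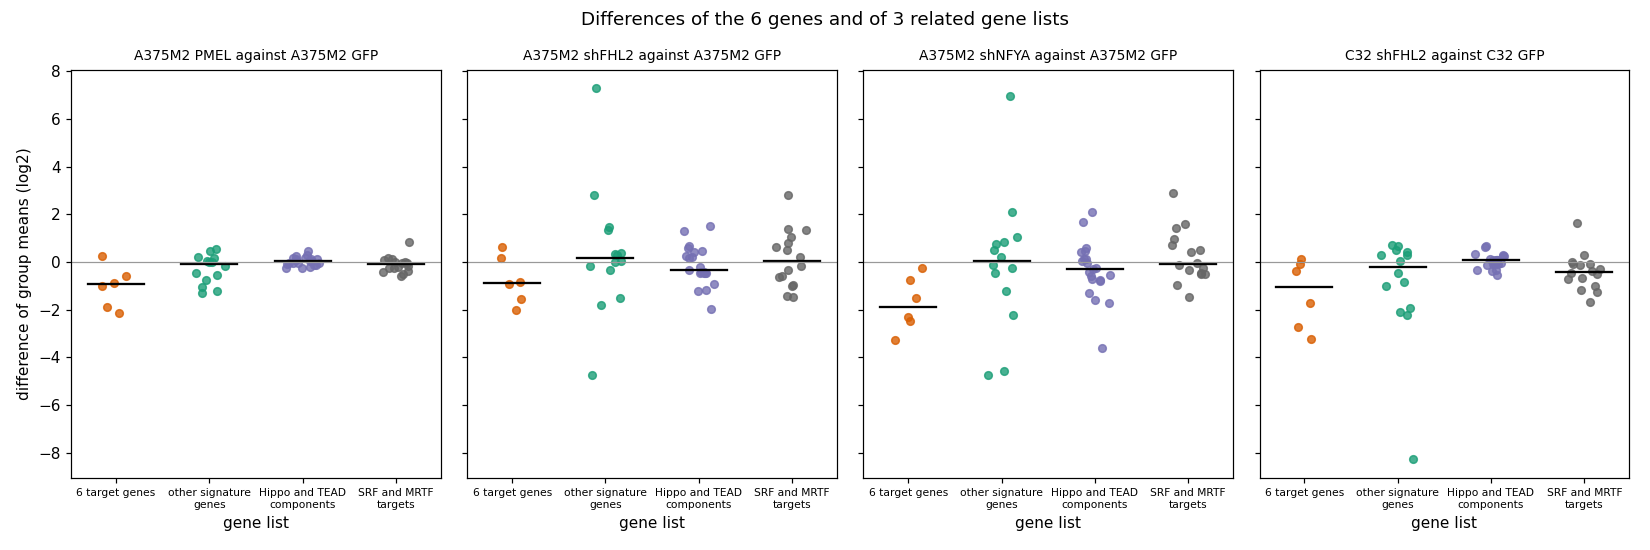
Difference from the GFP cells of the same line (log2, y axis) for the 6 genes, 14 other signature genes, 21 Hippo and TEAD genes and 16 SRF and MRTF targets (x axis), in 4 panels for the 4 comparisons; points are genes and bars are medians. The medians of the 6 genes lie at -0.94, -0.88, -1.89 and -1.06, and the signature genes spread on both sides of 0, with AXL at 7.29 and TGFB2 at -4.74 in the shFHL2 panel.

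Targets of serum response factor (SRF) and its MRTF cofactors, which read actin dynamics and overlap with YAP output, were listed because TPM1 and CCN1 are also known SRF targets. Of 22 listed, 16 were measured. With PMEL, 2 were called higher and 7 lower (median -0.09), and with shFHL2 8 higher and 7 lower (0.03). With shNFYA 7 were called higher and 7 lower (-0.08), and in C32 with shFHL2 1 higher and 11 lower (-0.42). The shares of all genes called were 40% with PMEL, 85.4% with shFHL2, 86.9% with shNFYA and 62.5% in C32. EGR1, an immediate early transcription factor, rose by 0.82 with PMEL, 2.81 with shFHL2 and 2.89 with shNFYA, and fell by 1.16 in C32 with shFHL2 (limma adjusted p = 1.15e-11, 1.15e-20, 5.07e-21 and 1.05e-13). TGFB1I1, a focal adhesion LIM protein, fell by 0.50 with PMEL and by 1.66 in C32 with shFHL2, and ACTA2, smooth muscle actin, fell by 0.57 and 1.25 in the same comparisons (limma adjusted p = 2.8e-07, 4.21e-14, 0.000364 and 5.71e-08). In the A375M2 knockdowns TGFB1I1 rose by 0.79 with shFHL2 and by 0.71 with shNFYA, whereas ACTA2 fell by 1.00 and by 0.49 (limma adjusted p = 2.57e-11, 1.08e-10, 8.67e-08 and 0.000329). LIMA1, an actin-bundling protein, fell by 1.46 with shFHL2, and ACTN1, an actin crosslinker, rose by 1.42 with shNFYA (limma adjusted p = 1.27e-15 and 8.01e-18). FOSL1, an AP-1 subunit, rose by 1.65 in C32 with shFHL2 (adjusted p = 1.18e-11).

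Markers of other cell types were read on the same arrays. Of 7 epithelial markers 3 were measured, and all 3 rose with shFHL2 and with shNFYA in A375M2; their summed log2 level ran from 12.74 to 12.81 with shFHL2, from 12.10 to 12.19 with shNFYA and from 11.35 to 11.51 with GFP, almost all of it KRT18. KRT8 averaged 4.73 with shFHL2 and 4.78 with shNFYA and lay under log2 4 with GFP (3.40), and KRT14 averaged 5.08 with shNFYA and lay under log2 4 with shFHL2 (2.97) and GFP (2.49). KRT8 and KRT18 were each read by 1 probe set, of the type that can cross-hybridise with related sequences. Of 7 fibroblast markers 5 were measured, and 4 fell with PMEL, 4 with shFHL2 and 4 with shNFYA. The remaining marker, COL1A1, was called higher in both knockdowns, averaging 7.05 with shFHL2, 6.78 with shNFYA and 5.77 with GFP. The fibroblast sum was 10.20 to 10.24 with PMEL, 8.90 to 9.02 with shFHL2, 8.69 to 8.89 with shNFYA and 11.50 to 11.69 with GFP. COL1A2 lay under log2 4 in every A375M2 group. Of 8 measured melanocyte markers, 3 fell with PMEL, 8 with shFHL2 and 7 with shNFYA, and SOX10 was called higher with PMEL (0.11). The melanocyte sum was 15.21 to 15.27, 13.26 to 13.35 and 13.08 to 13.15, against 15.22 to 15.32 with GFP. MLANA lay under log2 4 in every A375M2 group, and only 1 of its 2 probe sets was lower with shFHL2. TYR ended under log2 4 in both knockdowns (2.68 with shFHL2 and 2.37 with shNFYA), as did TYRP1 with shFHL2 (3.76). Among all genes tested, 17.8% were called lower with PMEL, 44.2% with shFHL2 and 43.2% with shNFYA. The shares called higher were 22.1%, 41.2% and 43.6%. MITF, the melanocyte master regulator, fell with shFHL2 (-4.18) and with shNFYA (-5.28; limma adjusted p = 1.13e-20 and 3.89e-22). The part of these markers in the results for the 6 genes was not tested.

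The genes most like each of the 6 across the 17 arrays were found by Pearson correlation among 7339 genes whose group means had an SD of at least 0.5. These values describe arrays that share 2 cell lines and the array sets above. CCN1 ran closest to CAMK2D (r = 0.967) and SETD7 (0.963), and CCN2 to SMIM29 (0.945) and ZNF385B (0.922). ZNF385B averaged 3.33 with PMEL, 2.36 with shFHL2, 2.36 with shNFYA and 7.20 with GFP in A375M2, and was under log2 4 in both C32 groups. TPM1 ran closest to CNTNAP4 (0.973) and NPTX1 (0.969); NPTX1 averaged 7.70 with PMEL, 4.44 with shFHL2, 4.59 with shNFYA and 10.82 with GFP. CRIM1 ran closest to THSD4 (0.923) and NTN4 (0.914), which also stood highest in A375M2 shFHL2, at 9.49 and 9.90. NT5E ran closest to HCFC1R1 (0.994) and ERLEC1 (0.991), and THBS1 to KIZ (0.995) and RPL3 (0.993), all of which mainly separated the 2 lines.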

How the data were processed

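The deposited values are log2 signals from Affymetrix 3′ expression arrays, which the authors made by GCRMA (version not given) according to the submitters' processing notes. The table covers 23416 probe sets on 18 arrays, with 0 missing values, and all columns matched a sample title (0 unmatched). A single gene symbol was listed for 20264 probe sets, several for 995 and none for 2099, and 58 were controls; only those with 1 symbol were used, 20254 of them with symbols taken by Entrez gene ID. Probe sets at log2 4 or more on at least 3 of 17 arrays were kept (833 were left out), and the probe set with the highest mean stood for its gene, giving 10918 genes.

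A model of the 6 group means was fitted to 17 arrays by limma 3.58.1 under R 4.3.3 (eBayes with a trend, 11 residual degrees of freedom), and two-sided p-values were adjusted by Benjamini-Hochberg over all genes within each comparison. Where cultures are not said to be separate, as in C32, p-values measure only the spread between arrays. The number of arrays limits precision: the median SE of a difference was 0.0711 log2 within A375M2 and 0.0795 in C32. Floored values set those under log2 4 to 4. The code was tested on simulated data. Named genes were the 6 targets, the 3 perturbed genes, up to 4 called genes per list and comparison with the largest difference among those without overlap, and the 2 genes most like each target; other genes were added after their values were seen. The members and lists were chosen with earlier results of these data known. Figures were drawn with matplotlib 3.10.9.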

Additional observations from a re-analysis of the deposited data

Results flagged for a closer look

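For several genes the FHL2 shRNAs had unlike effects in the 2 lines, given here as the effect in C32 minus that in A375M2. Among the 6 targets, shFHL2 and GFP arrays did not overlap, in opposite directions in the 2 lines, for CCN2 (2.16), CRIM1 (-1.04) and NT5E (-3.36). The CCN2 effect in C32 was 0.14 and was not called, and the NT5E effect in A375M2 was 0.15 on its brightest probe set. Without regard to direction, 74.5% of all genes did not overlap in C32 and 86.9% in A375M2. The share in opposite directions was not counted. The interaction fit called CCN2, CRIM1 and NT5E, as it did 80.2% of all genes. No p-value is given because the genes were chosen with these values known. The NT5E levels in C32 shFHL2 lie under log2 4.

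In the same interaction test by limma, further genes of the lists differed between the lines. Of the other YAP and TAZ signature genes, AXL (-9.51; adjusted p = 2.33e-15) had effects of -2.22 in C32 and 7.29 in A375M2, IGFBP3 (-8.65; adjusted p = 3.58e-22) of -8.25 in C32 and 0.40 in A375M2, F3 (-3.80; adjusted p = 1.03e-09) of -0.99 in C32 and 2.81 in A375M2, and TGFB2 (2.65; adjusted p = 1.69e-10) of -2.09 in C32 and -4.74 in A375M2. Of the Hippo and TEAD genes these were FRMD6 (2.06), TAOK1 (-1.71), NF2 (1.12) and TEAD4 (1.07), with adjusted p from 2.11e-13 to 9.85e-07. Of the SRF targets they were EGR1 (-3.98), TGFB1I1 (-2.45), TPM4 (-2.08) and TPM2 (-1.72), with adjusted p from 9.98e-20 to 2.11e-09. Of the relatives of the 6 genes they were CCN6 (-4.90), CCN3 (3.92), THBS2 (-3.88) and THBS3 (2.48), with adjusted p from 3.22e-15 to 1.74e-09. Only 2 of the 3 TAOK1 probe sets shared the sign given for that gene. AXL and IGFBP3 in C32 shFHL2 cells, CCN6 and THBS3 in both C32 groups, TGFB2 in A375M2 shFHL2 cells (3.90) and CCN6 in A375M2 GFP cells (2.64) lie under log2 4, where sizes cannot be read closely.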

How the results depend on the processing

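The counts of genes called stayed within 1.5 times of the reported ones in all 7 comparisons under the alternatives tried (low-value filter or floor, scaling, choice of probe set, variance model, array weights, threshold, arrays fitted), and with 18 arrays. Leaving out each array in turn gave 3704 to 4512 calls with PMEL (4364 reported), 9094 to 9364 with shFHL2 in A375M2 (9321), 9283 to 9524 with shNFYA (9484), 7293 to 7741 for shFHL2 against shNFYA (7670), 6211 to 6871 in C32 (6824), 9057 to 9387 between the lines (9374) and 8517 to 8793 for the difference between the lines (8756). Without A375M2 PMEL and GFP replicates 3 together, PMEL gave 3256 calls; of the results for named list genes, 171 kept direction and call and 4 lost the call: SOX10 (0.0868) and THBS3 (-0.277) with PMEL, TAOK1 in C32 (-0.385) and KRT14 between the lines' shFHL2 effects (-0.499). Apart from the mirrored replicates 3 of A375M2 PMEL and GFP (r = -0.9986), replicate numbers did not pair the arrays. Same-number correlations of deviations ran from -0.167 to 0.08 in the comparisons without PMEL. With a replicate block the counts were 4186 with PMEL, 9261 with shFHL2, 9446 with shNFYA and 7563 for shFHL2 against shNFYA. They were 6639 in C32, 9296 between the lines and 8647 for the difference between the lines. Leaving out either C32 GFP array leaves 1 there, whose spread is assumed to be that of the other groups. Some alternatives could not move a difference of the 6 genes. These left out an array outside the comparison, fitted only the groups compared, or changed only the variance model or threshold. Of the differences of the 6 genes under all alternatives, 1214 moved by less than the array spread or could not move, 84 moved by more, and 4 turned. As the mean of the probe sets, NT5E turned to -0.276 for shFHL2 against shNFYA and to 1.54 with shNFYA. CRIM1 between the lines turned to 0.156 as the mean of the probe sets and to 0.303 on the most variable one. TAOK1 with PMEL, 0.47 on its brightest probe set, turned to -0.0411 and -0.0894 under the same choices. Of the results for named genes of the lists, 5359 kept direction and side of the threshold and 55 lost the threshold; of the list counts, 2983 stayed within 1.5 times and 55 did not. Centring each array moved the median of all genes between the lines to 0.0939 from -0.107. In A375M2 it moved to 0.095 from -0.0336 with shFHL2 and to 0.126 from 0.00302 with shNFYA. For the difference of the shFHL2 effects between the lines it moved to -0.0463 from 0.0606. The cause of these changes was not tested beyond the probe sets shown in the report. Values under log2 4, as for NT5E and THBS1 in C32, lie near background and limit what size can be read.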

Other observations

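Relatives of the 6 genes changed in both directions. Of 16 listed relatives 7 were measured. With shFHL2 in A375M2, 4 were called higher and 3 lower, and with shNFYA 4 higher and 3 lower. With PMEL 2 were called higher and 3 lower, and in C32 with shFHL2 2 higher and 3 lower. The shares of all genes called were 85.4% with shFHL2, 86.9% with shNFYA, 40% with PMEL and 62.5% in C32. THBS2, a relative of THBS1, averaged 8.86 ± 0.09 with shFHL2, 8.68 ± 0.04 with shNFYA and 5.35 ± 0.22 with GFP in A375M2 (SD, n = 3 each), rises of 3.50 and 3.33 (limma adjusted p = 8.05e-17 and 1.12e-16), whereas THBS1 was lower in both groups. CCN6, a CCN family member, averaged 7.46 with shFHL2, 9.70 with shNFYA and 2.64 with GFP, the last of these under log2 4 (limma adjusted p = 6.7e-15 and 2.11e-17). CCN3, a CCN family member made by melanocytes, averaged 7.03 with shFHL2, 6.51 with shNFYA and 9.15 with GFP in A375M2, falls of 2.13 and 2.64, and rose by 1.79 in C32 with shFHL2 (limma adjusted p = 2.29e-14, 7.15e-16 and 8.89e-12). TPM2, another tropomyosin, rose by 1.33 with shFHL2 in A375M2 (adjusted p = 1.7e-10), where TPM1 was 1.55 lower. Between the control cells, THBS2 averaged 13.09 in C32 GFP and 5.35 in A375M2 GFP, a difference of 7.74 (adjusted p = 3.76e-21), opposite in sign to that of THBS1.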
